A study of Mus musculus with 58 samples.

Results

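In mouse striatum, ribosome footprints of 9 genes outside the 16p11.2 region stood apart between del/+ and wild-type (wt) males in 1 or both of the 2 lines studied. None of the 9 passed the test in any of 6 comparisons of RNA, where edgeR called only 0% to 0.144% of all genes. The genes were Lama1, Kcng1, Zfpm1, Dcp1b, Ski, Fzd8, Sertad4, Usp31 and Igip, which is 9 of 18411 genes in the footprint tables and of 54532 in the RNA-seq tables. They were chosen from the footprint comparisons themselves, so every footprint value of theirs is a description and carries no test. The edgeR threshold used for RNA was met in footprints by 5 of them in 16p11.2 males and 1 in 3g males. Of all genes, 0.117% and 0.0132% met it there. Sertad4, Usp31 and Igip met it in neither line. In 16p11.2 del/+ males the footprints of Lama1, Kcng1, Zfpm1 and Dcp1b were higher than in wt males, by 1.96-fold to 3.00-fold, and those of Ski were 2.23-fold lower. In 3g del/+ males the footprints of Fzd8 and Sertad4 were 3.21-fold and 4.12-fold lower, and those of Usp31 and Igip were 2.71-fold and 3.83-fold higher.

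A footprint is the stretch of mRNA that a ribosome shields from nuclease, and sequencing such fragments counts ribosomes on each gene's mRNA. A gene's footprint count depends on how much of its mRNA is present and on how many ribosomes sit on it, so RNA from the same lysate is sequenced beside it. In bulk tissue, fewer cells of a type and less RNA per cell cannot be told apart.

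Mouse lines were compared with their wt controls in the striatum, the forebrain nucleus of movement and reward. The labels give B6129S as the strain of all samples, while the study's methods name C57BL/6J males as sires of the embryos in which the 3g mutations were made. 16p11.2 del/+ mice carry 1 copy of a chromosome 7 segment that corresponds to the human 16p11.2 region, and 3g del/+ mice carry heterozygous null mutations, made with CRISPR/Cas9, in only Taok2, Sez6l2 and Mvp of that segment. Footprints and lysate RNA came from 13 males, 3 del/+ and 3 wt of the 3g line and 3 del/+ and 4 wt of the 16p11.2 line, with both libraries of an animal made from 1 lysate. RNA-seq came from other mice of 10 to 14 weeks, 4 for each line, sex and genotype, numbered 1 to 4 in the 16p11.2 line and 17 to 39 in the 3g line. The ages of the footprint animals are not given in the sources used here. Values are always given in rising order of the labels' animal numbers, and the footprint males are called A, B, C and, for 16p11.2 wt, D within each line and genotype in that order, which pairs no animals. Nothing in the labels says that the samples of a group came from separate litters or days, and the p-values measure only the spread between these animals.

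The footprint libraries held 342052 to 678130 counts and the lysate RNA libraries 15102576 to 19122488. All 3 del/+ footprint libraries of the 3g line were deeper (527917 to 678130) than its wt ones (342052 to 422918), and 3g wt A stood apart with 10.4% of its footprint counts on mitochondrial genes, where the other 5 libraries had 15.7% to 32.7%. RNA-seq libraries held 11711099 to 65529807 counts. The library labelled 16p11.2 del/+ female 1 went against its label, with Y-linked counts at 101 counts per 1000000 (CPM) and Xist at 0.440 CPM, and the fitted results of the 9 genes that use it are given with and without it. RNA of Taok2, Sez6l2 and Mvp was lower in 16p11.2 del/+ RNA-seq of both sexes, with log2 differences of -0.98 to -1.24 and edgeR adjusted p of 8.29e-06 to 0.038. In 3g del/+ RNA-seq the test called Sez6l2 in females only (log2 difference -0.49, edgeR adjusted p = 0.00336), and Sez6l2 in males was at -0.57 (edgeR adjusted p = 0.807). Taok2 was at -0.021 in 3g males and -0.024 in 3g females, and Mvp at -0.37 (edgeR adjusted p = 0.974) and -0.48 (edgeR adjusted p = 0.0663). In lysate RNA edgeR called 2 of these 3 genes in 16p11.2 males (-1.46 to -1.04), where 0.133% of all genes were called. It called 0 of 3 in 3g males (-0.53 to -0.067), where 0.0209% were called. In footprints 2 of the 3 could be fitted in each line and 0 were called, at -0.97 for both in 16p11.2 males and -0.85 and -0.15 in 3g males. All 9 markers of striatal projection neurons, among them Drd1, Drd2 and Adora2a, were detected. None was called in any of the 8 comparisons, where edgeR called only 0% to 0.144% of all genes.

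In footprints, edgeR called 7 of 5964 genes in 16p11.2 males (0.117%) at an adjusted p under 0.05, and 5 of them were among the 9 genes: Lama1, Kcng1, Zfpm1, Dcp1b and Ski. The other calls, Aldoa and Maz, lie in the deleted segment. Dcp1b was the last gene inside the threshold, and Cdc14b, which is not of the set, was just outside at an edgeR adjusted p of 0.0644. In 3g males 1 of 7553 genes was called (0.0132%), which was Fzd8, and Sertad4 was next outside. Usp31 ranked 4 and Igip 12 in that comparison. The groups of animals did not overlap for 5 of the 9 genes in 3g footprints, where they did not overlap for 13.3% of all genes, and for 5 in 16p11.2 footprints, where 6.69% of genes did not overlap. These calls, ranks and counts of the 9 genes follow from their choice, and nothing was read from them. The number of genes called depended on single libraries. In 3g footprints it was 24, 21 and 5 without wt A, B and C, and 0 without each of the del/+ males. In 16p11.2 footprints it was 8, 13, 6 and 2 without wt A, B, C and D, and 4, 4 and 3 without del/+ A, B and C. Igip had 5 to 12 footprint counts per 16p11.2 library and did not pass the filter on low counts, so 8 of the 9 genes were fitted there.

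**Figure D1:**
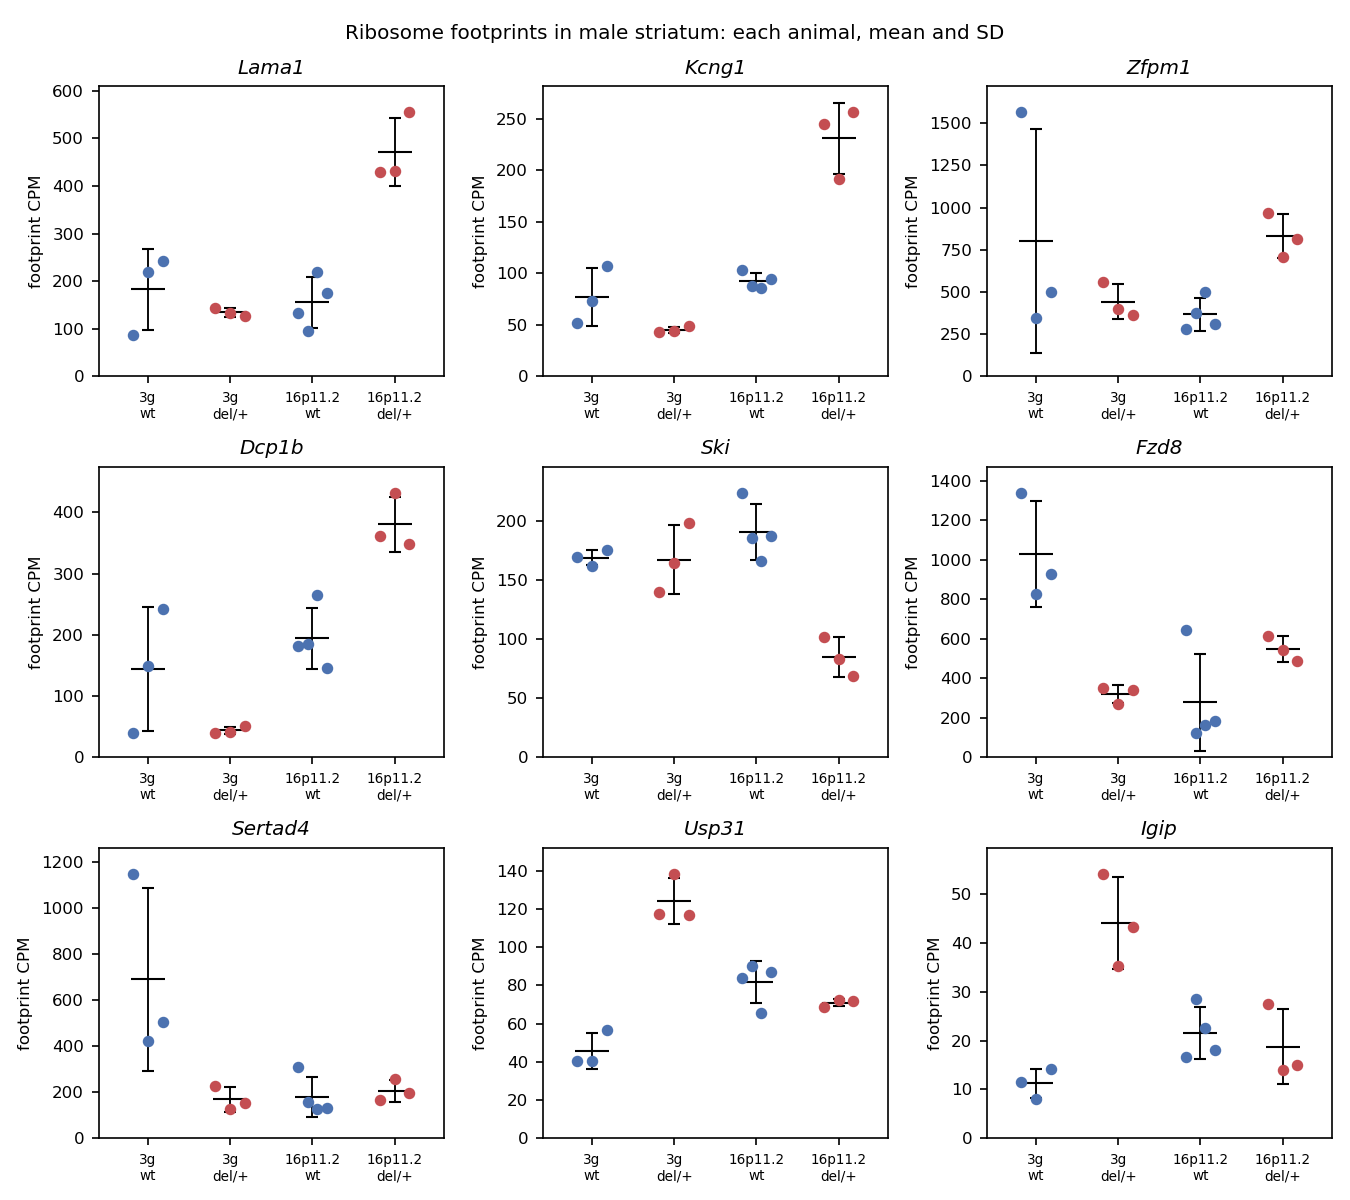
Footprint level of each gene in counts per 1000000 (CPM, y axis) for each male, by line and genotype (x axis), with wt in blue, del/+ in red, and the mean and SD in black. Lama1, Kcng1, Zfpm1 and Dcp1b lie above all wt animals in 16p11.2 del/+, Fzd8 and Sertad4 lie below all wt animals in 3g del/+, and 3g wt A is the highest animal for Zfpm1, Fzd8 and Sertad4.

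Sequence around the annotated start of transcription is shown for the genes with an entry in the RefSeq table, because the 5′ end is the part of an mRNA that ribosomes load on. Each window has 30 bases on GRCm38.p6, 5′ to 3′, with the first 10 transcribed bases in capitals after 20 bases of upstream DNA.
Zfpm1, chr8:122282121-122282150, plus strand: ggccagcctgcggggagcgcCCTGGCGGCG
Dcp1b, chr6:119175233-119175262, plus strand: ctcgctcggcggtcgattgaGGGGGCTTCC
Ski, chr4:155222526-155222555, minus strand: gggagcgggagcggccggggGAGCCCGATC
Sertad4, first entry, chr1:192851738-192851767, minus strand: cagatccagttcaggccgatCAGGGCTGTG
Sertad4, second entry, chr1:192855743-192855772, minus strand: gcggaggcagggcgggcgggGGCGCGGCGC
Usp31, chr7:121707433-121707462, minus strand: cgtgagctgcccacttgggcGGCCGCGCGA
A start with C followed by 4 bases that are each C or T, the letters of a terminal oligopyrimidine (TOP) motif, was in 0 of these 6 windows and in 2.51% of 32851 RefSeq starts on the strand of the gene. That says only that these letters are not at these annotated starts. Lama1, Kcng1, Fzd8 and Igip are named only.

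Lama1 encodes the laminin alpha 1 chain, a building block of basement membranes, and lies at chr17:67697127-67822645 on GRCm38.p6, the build of the RNA-seq tables. Its 16p11.2 footprints were 134, 94.98, 219.6 and 174 CPM in wt and 429.6, 431 and 555 CPM in del/+ males. The lowest del/+ animal was well above the highest wt animal, with means of 156 ± 53.5 CPM (SD, n = 4) and 472 ± 71.8 CPM (SD, n = 3) and a log2 difference of 1.58. In 3g males the footprints were 86.1, 219 and 243 CPM in wt and 144, 133 and 126 CPM in del/+, so the del/+ animals sat between wt A and the other wt animals. Lysate RNA of the same 16p11.2 animals was low, at 1.35, 1.82, 2.01 and 1.09 CPM in wt and 1.30, 1.56 and 0.875 CPM in del/+, and the groups overlapped. The log2 difference of that RNA was -0.32 (95% interval -1.06 to 0.43), the opposite sign to the footprints, with edgeR adjusted p = 0.990. Over the 6 RNA comparisons the log2 differences were -0.59 to 0.31 and the edgeR adjusted p was at least 0.926.

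Lysate RNA of Lama1 in 3g males was 2.42, 2.70 and 1.77 CPM in wt and 1.28, 1.18 and 2.09 CPM in del/+, with wt B the highest and del/+ B the lowest animal, and the log2 difference was -0.59 (edgeR adjusted p = 0.940). Lama1 RNA-seq of 3g males gave 2.61, 4.76, 4.24 and 6.67 CPM in wt and 4.40, 5.75, 5.83 and 6.51 CPM in del/+ mice. Lama1 in 3g females was at 6.87, 6.71, 6.25 and 5.42 CPM in wt and 7.05, 5.20, 7.44 and 6.29 CPM in del/+. Lama1 was highest in wt 34 and lowest in wt 17 of these males and highest in del/+ 36 and lowest in del/+ 31 of the females, and the groups overlapped in both sexes. Lama1 RNA-seq of 16p11.2 males gave 2.57, 2.91, 2.89 and 3.55 CPM in wt and 3.13, 2.75, 2.30 and 4.41 CPM in del/+ mice. Lama1 in 16p11.2 females was at 2.73, 2.82, 2.44 and 2.99 CPM in wt and 2.92, 2.66, 1.87 and 2.63 CPM in del/+. Lama1 in this line was highest in the male del/+ 4 and the female wt 4 and lowest in the male del/+ 3 and the female del/+ 3, and the groups overlapped in both sexes. For Lama1 the log2 difference was 0.31 in males and 0.040 in females of the 3g line, and 0.084 in males and -0.12 in females of the 16p11.2 line, with edgeR adjusted p of 0.974, 0.926, 0.934 and 0.998, and without del/+ female 1 the last difference was -0.20.

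Markers of cells that make basement membranes were read beside these values. In 16p11.2 footprints the summed level of 8 leptomeningeal fibroblast markers was 284 to 520.0 CPM in wt and 395 to 537 CPM in del/+ males, and 0 of the 3 markers that could be fitted were called by edgeR. For 7 endothelial markers the sums were 49.3 to 81.7 CPM in wt and 27.5 to 86.5 CPM in del/+, with none fitted. In 3g lysate RNA, where the groups did not overlap for 9.65% of all genes, the fibroblast sum was higher in every del/+ male (169.9 to 187 CPM) than in every wt male (126 to 146 CPM), with 0 of 8 markers called. Its part in the Lama1 value of that comparison was not tested.

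Fzd8 encodes a Frizzled receptor, through which Wnt ligands signal, and lies at chr18:9212856-9216201. Its 3g footprints were 1335, 826 and 926 CPM in wt and 351, 269.8 and 342 CPM in del/+ males. Every del/+ animal was below every wt animal, with means of 321 ± 44.5 CPM (SD, n = 3) and 1029 ± 269.8 CPM (SD, n = 3) and a log2 difference of -1.68, or -1.45 without wt A. In 16p11.2 males the direction was the other way, at 644, 123, 162 and 182 CPM in wt and 614, 545 and 486 CPM in del/+. Only wt A reached the del/+ level there, and the log2 difference of 1.01 became 1.81 without it. Lysate RNA was low in both lines, with 5.84, 3.07 and 3.54 CPM in 3g wt and 3.77, 3.78 and 3.68 CPM in 3g del/+ males. It was 4.21, 4.28, 2.31 and 2.89 CPM in 16p11.2 wt and 3.85, 3.40 and 3.77 CPM in 16p11.2 del/+ males. The groups overlapped in both lines, with wt A the highest of the 3g animals and wt A and B the highest of the 16p11.2 animals. Over the 6 RNA comparisons the log2 differences of Fzd8 were -0.16 to 0.30 (95% intervals within -0.69 to 0.87), with edgeR adjusted p of at least 0.782.

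Fzd8 RNA-seq of 3g males gave 1.90, 2.02, 1.78 and 2.27 CPM in wt and 1.44, 2.09, 2.18 and 2.17 CPM in del/+ mice. Fzd8 in 3g females was at 1.99, 1.65, 2.47 and 2.38 CPM in wt and 2.19, 1.98, 2.65 and 2.17 CPM in del/+. Fzd8 was highest in wt 34 and lowest in del/+ 25 of these males and highest in del/+ 36 and lowest in wt 30 of the females, and the groups overlapped in both sexes. Fzd8 RNA-seq of 16p11.2 males gave 2.32, 1.21, 1.68 and 2.42 CPM in wt and 2.42, 2.63, 2.56 and 1.79 CPM in del/+ mice. Fzd8 in 16p11.2 females was at 1.73, 2.20, 1.42 and 1.71 CPM in wt and 1.99, 2.46, 2.24 and 1.94 CPM in del/+. Fzd8 in this line was highest in the male del/+ 2 and the female del/+ 2 and lowest in the male wt 2 and the female wt 3, and the groups overlapped in both sexes. For Fzd8 the log2 difference was 0.011 in males and 0.063 in females of the 3g line, and 0.30 in males and 0.29 in females of the 16p11.2 line, with edgeR adjusted p of 0.999, 0.910, 0.782 and 0.998, and without del/+ female 1 the last difference was 0.33.

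Kcng1 encodes Kv6.1, a silent potassium channel subunit that forms channels only together with subunits of another Kv family, and lies at chr2:168260117-168281533. Its 16p11.2 footprints were 103, 87.9, 86.2 and 94.5 CPM in wt and 245, 192 and 256 CPM in del/+ males. The wt animals lay close together and all del/+ animals were far above them, with means of 92.9 ± 7.71 CPM (SD, n = 4) and 231 ± 34.5 CPM (SD, n = 3) and a log2 difference of 1.31. In 3g males the footprints were 51.7, 72.9 and 107 CPM in wt and 42.8, 44.5 and 48.6 CPM in del/+, without overlap and with a log2 difference of -0.77. Lysate RNA of the same 16p11.2 males went against the footprints, at 15.4, 17.7, 15.9 and 15.6 CPM in wt and 13.8, 12.3 and 13.5 CPM in del/+. All 3 del/+ animals were below all 4 wt animals in that RNA, and the log2 difference of -0.29 (95% interval -0.54 to -0.043) had an unadjusted p of 0.0252 and an adjusted p of 0.990 in edgeR. Kcng1 was 1 of 9 genes without overlap in 16p11.2 lysate RNA, where the groups did not overlap for 5.71% of all genes. In 3g lysate RNA the values were 17.9, 20.3 and 17.03 CPM in wt and 16.4, 18.7 and 18.2 CPM in del/+ and the groups overlapped.

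RNA-seq of 3g females gave the lowest p of any of the 9 genes in RNA, for Kcng1. Only wt female 35 was above any del/+ female, which was del/+ 28. The log2 difference was 0.20 (95% interval 0.072 to 0.32) with an unadjusted p of 0.00508, an adjusted p of 0.287 in edgeR and 0.141 in DESeq2. Males of that line were at -0.046, and the difference between the sexes was -0.25 (males minus females, edgeR adjusted p = 0.901). In 16p11.2 RNA-seq the log2 difference of Kcng1 was -0.12 in males and -0.19 in females, or -0.14 in females without del/+ female 1.

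Kcng1 RNA-seq of 3g males gave 49.96, 38.7, 46.6 and 42.5 CPM in wt and 43.8, 41.5, 38.9 and 47.9 CPM in del/+ mice. Kcng1 in 3g females was at 36.5, 37.3, 41.5 and 36.7 CPM in wt and 39.6, 46.7, 43.4 and 44.5 CPM in del/+. Kcng1 was highest in wt 17 and lowest in wt 24 of these males and highest in del/+ 31 and lowest in wt 29 of the females, and the groups overlapped in both sexes. Kcng1 RNA-seq of 16p11.2 males gave 46.9, 44.2, 49.1 and 39.2 CPM in wt and 54.2, 36.9, 39.2 and 34.98 CPM in del/+ mice. Kcng1 in 16p11.2 females was at 51.2, 52.6, 42.8 and 51.6 CPM in wt and 39.4, 57.7, 43.6 and 33.6 CPM in del/+. Kcng1 in this line was highest in the male del/+ 1 and the female del/+ 2 and lowest in the male del/+ 4 and the female del/+ 4, and the groups overlapped in both sexes. For Kcng1 the log2 difference was -0.046 in males and 0.20 in females of the 3g line, and -0.12 in males and -0.19 in females of the 16p11.2 line, with edgeR adjusted p of 0.977, 0.287, 0.846 and 0.998, and without del/+ female 1 the last difference was -0.14.

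Zfpm1 (FOG1), a cofactor of GATA transcription factors, lies at chr8:122281856-122337862. Its 16p11.2 footprints were 282, 375, 501 and 309 CPM in wt and 967, 706 and 817 CPM in del/+ males. The groups did not overlap, with means of 367 ± 97.7 CPM (SD, n = 4) and 830.0 ± 131 CPM (SD, n = 3) and a log2 difference of 1.18. In 3g males the footprints were 1565, 348 and 499.4 CPM in wt and 560.3, 402 and 365 CPM in del/+. Animal wt A was far above the other 5, and the log2 difference of -0.86 became 0.059 without that animal. Lysate RNA was 18.6, 18.2, 19.8 and 17.8 CPM in 16p11.2 wt and 13.8, 10.3 and 19.9 CPM in 16p11.2 del/+ males. Here del/+ A and B were below all wt animals and del/+ C was above them, for a log2 difference of -0.35 (edgeR adjusted p = 0.990). In the 3g lysates the RNA of wt A was 23.03 CPM beside 21.3 and 18.7 CPM in the other wt animals. Del/+ males were at 20.5, 19.8 and 20.3 CPM, within the wt range, for a log2 difference of -0.058 (edgeR adjusted p = 0.981). In RNA-seq of 3g females all del/+ values (22.0 to 23.2 CPM) were below all wt values (23.2 to 24.3 CPM), although the nearest animals were the same to 3 digits. Zfpm1 was 1 of 9 genes without overlap there, as were 5.66% of all genes, and the log2 difference was -0.075 (edgeR adjusted p = 0.530).

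Zfpm1 RNA-seq of 3g males gave 34.5, 22.9, 23.4 and 24.03 CPM in wt and 27.95, 23.6, 21.3 and 25.6 CPM in del/+ mice. Zfpm1 in 3g females was at 24.1, 23.9, 24.3 and 23.2 CPM in wt and 22.4, 23.2, 23.2 and 22.0 CPM in del/+. Zfpm1 was highest in wt 17 and lowest in del/+ 32 of these males and highest in wt 35 and lowest in del/+ 37 of the females, and the groups overlapped in males and did not overlap in females. Zfpm1 RNA-seq of 16p11.2 males gave 37.7, 32.6, 36.5 and 36.002 CPM in wt and 30.96, 39.1, 36.9 and 24.6 CPM in del/+ mice. Zfpm1 in 16p11.2 females was at 32.1, 38.6, 32.5 and 27.4 CPM in wt and 34.3, 33.6, 34.8 and 31.4 CPM in del/+. Zfpm1 in this line was highest in the male del/+ 2 and the female wt 2 and lowest in the male del/+ 4 and the female wt 4, and the groups overlapped in both sexes. For Zfpm1 the log2 difference was -0.094 in males and -0.075 in females of the 3g line, and -0.12 in males and 0.040 in females of the 16p11.2 line, with edgeR adjusted p of 0.974, 0.530, 0.843 and 0.998, and without del/+ female 1 the last difference was 0.029.

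Ski, a nuclear co-repressor that restrains SMAD proteins in TGF-beta signalling, lies at chr4:155154075-155222535. It was the only one of the 5 genes called in 16p11.2 males with lower footprints in del/+, at 223, 185, 166 and 187 CPM in wt and 102, 83.4 and 68.6 CPM in del/+. All del/+ animals were below all wt animals, with means of 190.4 ± 23.7 CPM (SD, n = 4) and 84.6 ± 16.7 CPM (SD, n = 3) and a log2 difference of -1.16. In 3g males the footprints were 169, 162 and 175 CPM in wt and 139.5, 164 and 198 CPM in del/+, with overlapping groups and a log2 difference of -0.0100. Lysate RNA of the 16p11.2 males was 118, 119, 101 and 137 CPM in wt and 104, 98.5 and 142 CPM in del/+. The highest value of that RNA was in del/+ C, the animal with the lowest footprints, and the log2 difference was -0.047 (95% interval -0.36 to 0.26, edgeR adjusted p = 0.992). In RNA-seq of 16p11.2 males all del/+ values (181 to 205 CPM) were below all wt values (211 to 223 CPM), as for 3.85% of all genes in either direction, and the log2 difference of -0.14 did not pass the test (edgeR adjusted p = 0.742).

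Lysate RNA of Ski in 3g males was 161, 162 and 137 CPM in wt and 139, 139.5 and 142 CPM in del/+, with wt B the highest and wt C the lowest animal, and the log2 difference was -0.13 (edgeR adjusted p = 0.950). Ski RNA-seq of 3g males gave 229, 195, 225 and 207 CPM in wt and 224, 199, 198 and 220.3 CPM in del/+ mice. Ski in 3g females was at 201, 204, 211 and 185 CPM in wt and 208, 195, 197 and 198 CPM in del/+. Ski was highest in wt 17 and lowest in wt 24 of these males and highest in wt 35 and lowest in wt 39 of the females, and the groups overlapped in both sexes. Ski RNA-seq of 16p11.2 males gave 221, 211, 216 and 223 CPM in wt and 204, 202, 205 and 181 CPM in del/+ mice. Ski in 16p11.2 females was at 213, 231, 206 and 209 CPM in wt and 199, 220.0, 219.8 and 199.7 CPM in del/+. Ski in this line was highest in the male wt 4 and the female wt 2 and lowest in the male del/+ 4 and the female del/+ 1, and the groups did not overlap in males and overlapped in females. For Ski the log2 difference was -0.023 in males and -0.0067 in females of the 3g line, and -0.14 in males and -0.035 in females of the 16p11.2 line, with edgeR adjusted p of 0.985, 0.976, 0.742 and 0.998, and without del/+ female 1 the last difference was -0.011.

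Sertad4 encodes a protein with a SERTA domain, a motif first described in regulators of transcription, and lies at chr1:192844469-192855752. Its 3g footprints were 1146, 421 and 505.1 CPM in wt and 227, 127 and 151 CPM in del/+ males. Every del/+ animal was below every wt animal and wt A was far above the rest, with a log2 difference of -2.04, or -1.47 without wt A. The means were 691 ± 396 CPM (SD, n = 3) and 169 ± 52.2 CPM (SD, n = 3). In 16p11.2 males the groups overlapped at 309.5, 157, 125 and 133 CPM in wt and 165, 259 and 197 CPM in del/+, again with wt A highest. Lysate RNA of the 3g males was 23.2, 23.6 and 23.2 CPM in wt and 21.6, 24.8 and 24.3 CPM in del/+. The RNA of wt A did not stand apart as its footprints did, and the log2 difference was 0.017 (95% interval -0.21 to 0.25, edgeR adjusted p = 0.996). Over the 6 RNA comparisons the log2 differences of Sertad4 were -0.15 to 0.017 and the edgeR adjusted p was at least 0.762.

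Lysate RNA of Sertad4 in 16p11.2 males was 19.9, 19.8, 17.6 and 20.8 CPM in wt and 18.6, 16.1 and 21.8 CPM in del/+, with del/+ C the highest and del/+ B the lowest animal, and the log2 difference was -0.053 (edgeR adjusted p = 0.990). Sertad4 RNA-seq of 3g males gave 41.2, 49.6, 54.6 and 51.3 CPM in wt and 51.6, 45.1, 52.3 and 47.5 CPM in del/+ mice. Sertad4 in 3g females was at 50.1, 50.4, 49.2 and 43.2 CPM in wt and 48.6, 44.4, 45.8 and 47.6 CPM in del/+. Sertad4 was highest in wt 26 and lowest in wt 17 of these males and highest in wt 30 and lowest in wt 39 of the females, and the groups overlapped in both sexes. Sertad4 RNA-seq of 16p11.2 males gave 40.1, 40.7, 39.4 and 38.3 CPM in wt and 41.6, 28.9, 37.2 and 35.3 CPM in del/+ mice. Sertad4 in 16p11.2 females was at 43.3, 39.9, 32.4 and 40.1 CPM in wt and 32.3, 41.8, 40.9 and 30.1 CPM in del/+. Sertad4 in this line was highest in the male del/+ 1 and the female wt 1 and lowest in the male del/+ 2 and the female del/+ 4, and the groups overlapped in both sexes. For Sertad4 the log2 difference was -0.0029 in males and -0.047 in females of the 3g line, and -0.15 in males and -0.10 in females of the 16p11.2 line, with edgeR adjusted p of 0.999, 0.772, 0.762 and 0.998, and without del/+ female 1 the last difference was -0.051.

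Dcp1b encodes a cofactor of the Dcp2 enzyme, which removes the 5′ cap of mRNAs bound for decay, and lies at chr6:119175253-119221614. Its 16p11.2 footprints were 181, 185, 265 and 145 CPM in wt and 361, 431 and 349 CPM in del/+ males. The groups did not overlap, with means of 194 ± 50.4 CPM (SD, n = 4) and 380.2 ± 44.3 CPM (SD, n = 3) and a log2 difference of 0.97. In 3g males the footprints were 40.2, 148 and 243 CPM in wt and 40.5, 41.4 and 50.4 CPM in del/+. There wt A was as low as the del/+ animals, and the log2 difference of -1.70 became -2.14 without it and -1.10 without wt C. Lysate RNA was 12.7, 13.9, 14.04 and 11.3 CPM in 16p11.2 wt and 13.5, 10.9 and 14.7 CPM in 16p11.2 del/+ males, with overlapping groups. Its log2 difference was 0.0043 (95% interval -0.30 to 0.31, edgeR adjusted p = 0.999). In RNA-seq of 16p11.2 males the libraries del/+ 4 and wt 4 were the ends of the range, and the log2 difference of 0.32 (edgeR adjusted p = 0.742) was 0.14 without del/+ male 4.

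Lysate RNA of Dcp1b in 3g males was 13.1, 17.5 and 18.5 CPM in wt and 18.1, 14.1 and 13.9 CPM in del/+, with wt C the highest and wt A the lowest animal, and the log2 difference was -0.086 (edgeR adjusted p = 0.980). Dcp1b RNA-seq of 3g males gave 22.4, 31.6, 35.1 and 34.1 CPM in wt and 36.6, 34.9, 31.8 and 34.6 CPM in del/+ mice. Dcp1b in 3g females was at 31.8, 34.3, 32.1 and 31.05 CPM in wt and 31.4, 33.5, 32.8 and 31.7 CPM in del/+. Dcp1b was highest in del/+ 25 and lowest in wt 17 of these males and highest in wt 30 and lowest in wt 39 of the females, and the groups overlapped in both sexes. Dcp1b RNA-seq of 16p11.2 males gave 20.8, 21.5, 21.0 and 15.7 CPM in wt and 22.4, 20.9, 22.2 and 32.99 CPM in del/+ mice. Dcp1b in 16p11.2 females was at 20.9, 20.7, 18.4 and 21.6 CPM in wt and 23.8, 18.5, 20.3 and 22.1 CPM in del/+. Dcp1b in this line was highest in the male del/+ 4 and the female del/+ 1 and lowest in the male wt 4 and the female wt 3, and the groups overlapped in both sexes. For Dcp1b the log2 difference was 0.16 in males and 0.00072 in females of the 3g line, and 0.32 in males and 0.053 in females of the 16p11.2 line, with edgeR adjusted p of 0.974, 0.998, 0.742 and 0.998, and without del/+ female 1 the last difference was -0.0082.

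Usp31 belongs to the ubiquitin-specific proteases, which take ubiquitin off other proteins, and lies at chr7:121642021-121707461, 5.22 Mb from Taok2 on the chromosome that carries the mutations. Its 3g footprints were 40.2, 40.5 and 56.4 CPM in wt and 117, 138 and 117 CPM in del/+ males. Both groups were tight and apart, with means of 45.7 ± 9.29 CPM (SD, n = 3) and 124 ± 12.1 CPM (SD, n = 3) and a log2 difference of 1.44. In 16p11.2 males the footprints were 83.7, 90.2, 65.7 and 87.2 CPM in wt and 68.8, 72.3 and 71.6 CPM in del/+, with overlap and a log2 difference of -0.20. Lysate RNA of the 3g males was 124, 117 and 124 CPM in wt and 129, 136 and 137 CPM in del/+. All 3 del/+ animals were above all wt animals in that RNA, by a log2 difference of 0.14 (95% interval -0.064 to 0.34) with edgeR adjusted p = 0.949. Usp31 was 1 of 9 genes without overlap in a comparison where 9.65% of all genes had none.

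Lysate RNA of Usp31 in 16p11.2 males was 106, 115, 128 and 116 CPM in wt and 109.9, 124 and 118 CPM in del/+, with wt C the highest and wt A the lowest animal, and the log2 difference was 0.013 (edgeR adjusted p = 0.996). Usp31 RNA-seq of 3g males gave 125, 107, 115 and 113 CPM in wt and 116, 127, 120.0 and 119.6 CPM in del/+ mice. Usp31 in 3g females was at 117, 117, 118 and 114 CPM in wt and 121, 127, 127 and 116 CPM in del/+. Usp31 was highest in del/+ 27 and lowest in wt 24 of these males and highest in del/+ 31 and lowest in wt 39 of the females, and the groups overlapped in both sexes. Usp31 RNA-seq of 16p11.2 males gave 112, 126, 125 and 152 CPM in wt and 134, 123, 127 and 138 CPM in del/+ mice. Usp31 in 16p11.2 females was at 132, 131, 147 and 133 CPM in wt and 124, 142, 139.7 and 123 CPM in del/+. Usp31 in this line was highest in the male wt 4 and the female wt 3 and lowest in the male wt 1 and the female del/+ 4, and the groups overlapped in both sexes. For Usp31 the log2 difference was 0.067 in males and 0.078 in females of the 3g line, and 0.020 in males and -0.038 in females of the 16p11.2 line, with edgeR adjusted p of 0.974, 0.457, 0.970 and 0.998, and without del/+ female 1 the last difference was -0.0075.

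Igip encodes a small secreted peptide named for inducing immunoglobulin A and lies at chr18:36300101-36301478. Its 3g footprint counts were 4, 3 and 5 in wt and 24, 23 and 24 in del/+ males, which is 11.5, 8.10 and 14.1 CPM and 54.01, 35.3 and 43.2 CPM. The groups were apart, with means of 11.23 ± 3.01 CPM (SD, n = 3) and 44.2 ± 9.41 CPM (SD, n = 3). The log2 difference was 1.94, at counts low enough that counting error is large. Igip passed the filter on low counts there only through the del/+ libraries, which were also the deeper ones. Its higher level in del/+ was thus a condition of its being fitted. In 16p11.2 males the counts were 6, 12, 11 and 10 in wt and 10, 5 and 5 in del/+, and the groups overlapped. Lysate RNA was many times higher in counts, at 106, 97.9 and 99.2 CPM in 3g wt and 109.9, 116 and 85.8 CPM in 3g del/+ males. The groups overlapped, and the log2 difference was 0.038 (95% interval -0.21 to 0.29, edgeR adjusted p = 0.987). Over the 6 RNA comparisons the log2 differences of Igip were -0.059 to 0.069.

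Lysate RNA of Igip in 16p11.2 males was 87.1, 81.6, 81.6 and 80.8 CPM in wt and 73.5, 94.8 and 88.9 CPM in del/+, with del/+ B the highest and del/+ A the lowest animal, and the log2 difference was 0.051 (edgeR adjusted p = 0.990). Igip RNA-seq of 3g males gave 52.9, 39.6, 42.9 and 40.2 CPM in wt and 49.97, 39.8, 38.4 and 40.9 CPM in del/+ mice. Igip in 3g females was at 39.5, 44.8, 38.6 and 39.99 CPM in wt and 36.5, 43.7, 45.3 and 43.2 CPM in del/+. Igip was highest in wt 17 and lowest in del/+ 32 of these males and highest in del/+ 36 and lowest in del/+ 28 of the females, and the groups overlapped in both sexes. Igip RNA-seq of 16p11.2 males gave 41.99, 46.3, 46.3 and 44.96 CPM in wt and 53.4, 47.3, 47.7 and 40.1 CPM in del/+ mice. Igip in 16p11.2 females was at 52.1, 46.8, 49.8 and 49.6 CPM in wt and 45.8, 51.3, 47.7 and 46.02 CPM in del/+. Igip in this line was highest in the male del/+ 1 and the female wt 1 and lowest in the male del/+ 4 and the female del/+ 1, and the groups overlapped in both sexes. For Igip the log2 difference was -0.059 in males and 0.051 in females of the 3g line, and 0.069 in males and -0.056 in females of the 16p11.2 line, with edgeR adjusted p of 0.977, 0.816, 0.874 and 0.998, and without del/+ female 1 the last difference was -0.036.

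**Figure D2:**
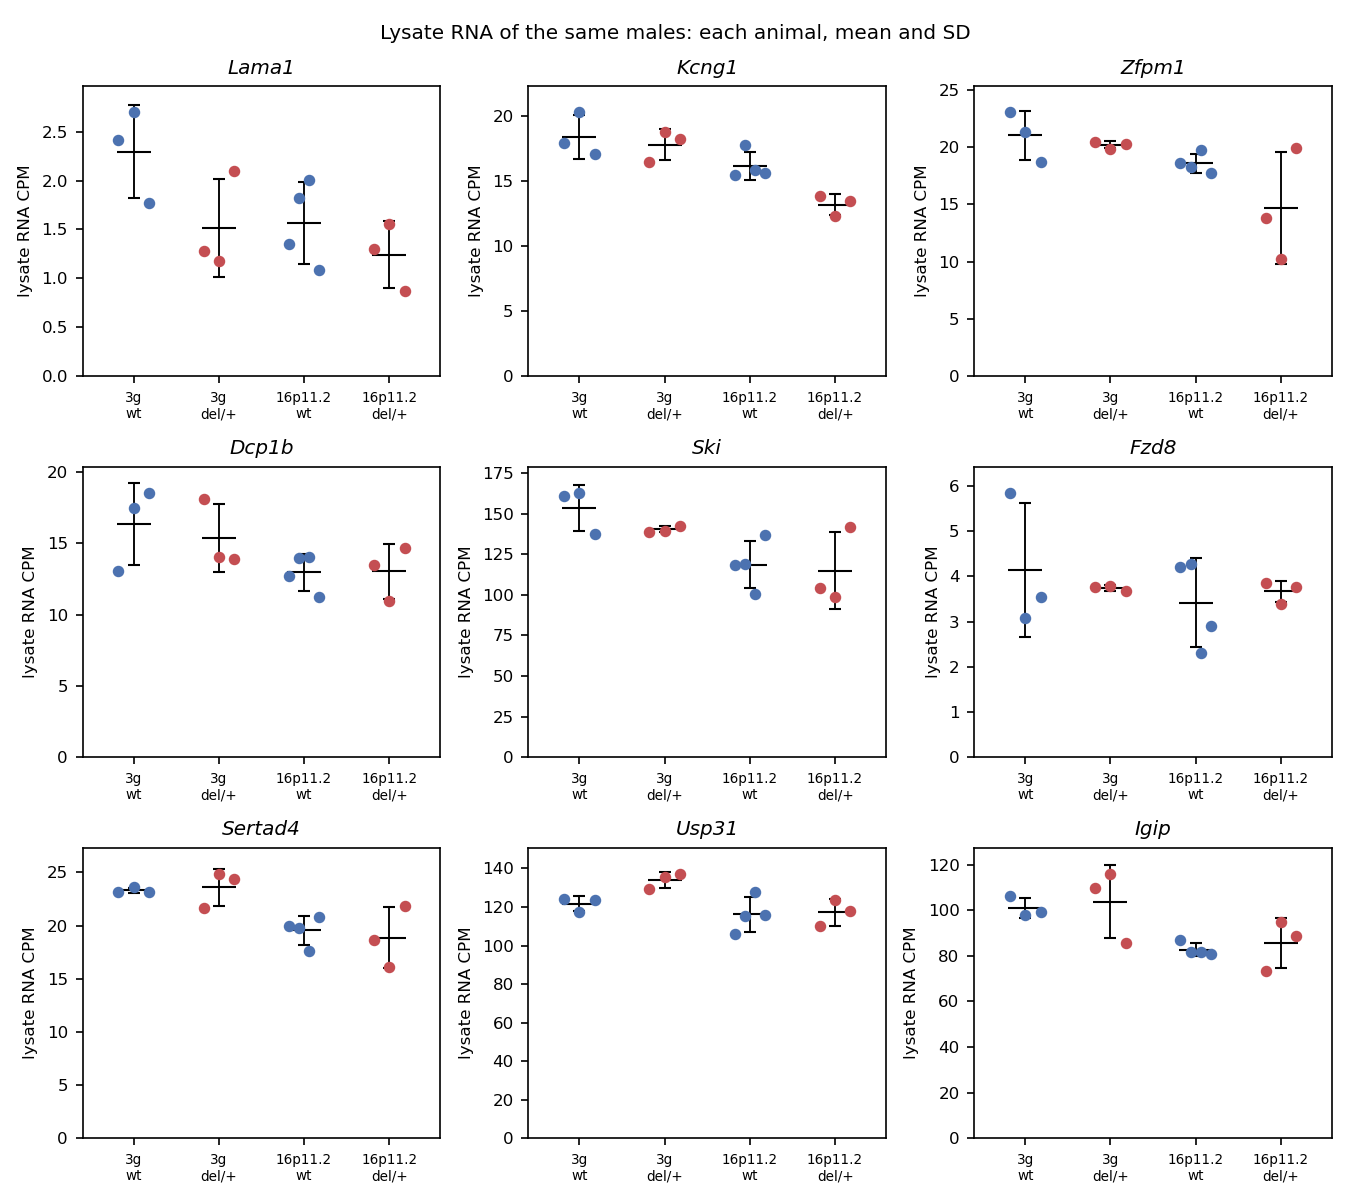
Lysate RNA level of each gene in CPM (y axis) for the same males as in the footprint plot, by line and genotype (x axis), with wt in blue, del/+ in red, and the mean and SD in black. Groups overlap in every panel except Usp31 in the 3g line and Kcng1 in the 16p11.2 line.

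Across the set, edgeR called 0 of 9 genes in each of the 6 RNA comparisons, and DESeq2 also called 0 in each. Of all genes, edgeR called 0.0209% in lysate RNA of the 3g line and 0.133% in that of the 16p11.2 line, and DESeq2 called 0.0904% and 0.216%. In RNA-seq of the 3g line edgeR called 0% of genes in males and 0.00526% in females (DESeq2, 0.00524% and 0.620%), and in the 16p11.2 line 0.106% in males and 0.144% in females (DESeq2, 0.167% and 0.271%). At an unadjusted p under 0.05, edgeR had 1 of 9 in 16p11.2 lysate RNA, where 4.41% of all genes had one, and 1 of 9 in 3g female RNA-seq, where 11% (2098 of 19024) had one, and both of these were Kcng1. The other 4 comparisons had 0 of 9, where 4.92% (3g lysate RNA), 1.44% (RNA-seq, 3g males), 5.82% (RNA-seq, 16p11.2 males) and 4.47% (RNA-seq, 16p11.2 females) of all genes had such a p. In RNA-seq of 3g males and of 16p11.2 females no gene of the set had groups without overlap, where 1.95% and 2.91% of all genes had. The median log2 difference of the 9 genes was between -0.058 and 0.040 in the 6 RNA comparisons and that of all genes between -0.0051 and 0.0016. In footprints the set's median was -0.77 in the 3g line and 0.99 in the 16p11.2 line, as its choice fixed. A p that misses the threshold does not show that RNA was equal, and the widest 95% intervals were those of the low RNAs Lama1 (-1.29 to 0.86 over the 6 comparisons) and Fzd8.

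The deletion effect on RNA was also compared between the sexes. The difference between the male and female effect was between -0.25 and 0.27 over the 9 genes and both lines, and the lowest edgeR adjusted p was 0.838. Without the library labelled 16p11.2 del/+ female 1, log2 differences in 16p11.2 females ran from -0.20 for Lama1 to 0.33 for Fzd8, where with it they ran from -0.19 for Kcng1 to 0.29 for Fzd8. Without that library the differences between the sexes in the 16p11.2 line, an alternative chosen after the data were seen, were -0.15 to 0.32, with edgeR adjusted p of at least 0.675. edgeR called 0 of the 9 genes in females and 0 for the difference between the sexes in both cases, and Dcp1b in females moved from 0.053 to -0.0082.

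**Figure D3:**
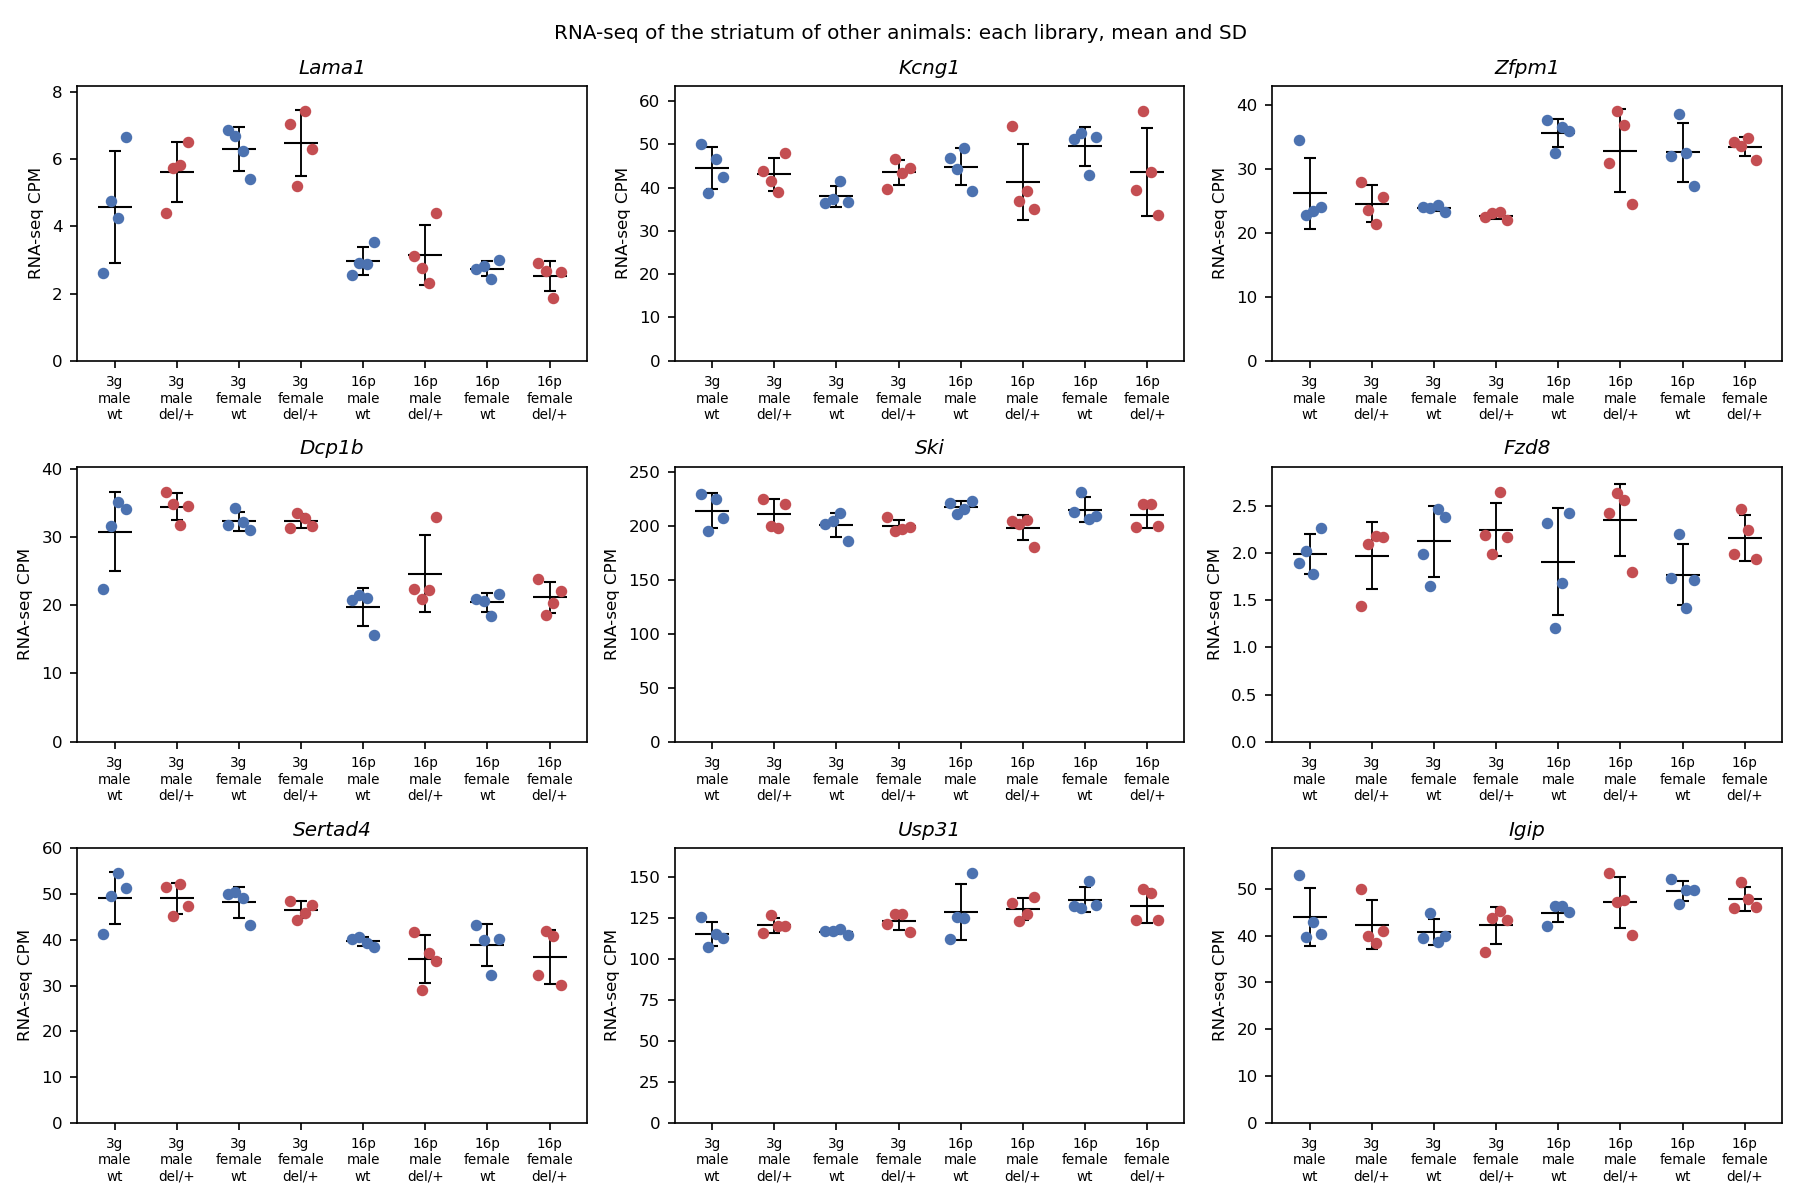
RNA-seq level of each gene in CPM (y axis) for each library, by line, sex and genotype (x axis), with wt in blue, del/+ in red, and the mean and SD in black. CPM were scaled within each pair of wt and del/+ groups. The groups do not overlap for Zfpm1 in 3g females and Ski in 16p11.2 males, and overlap in the other pairs.

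**Figure D4:**
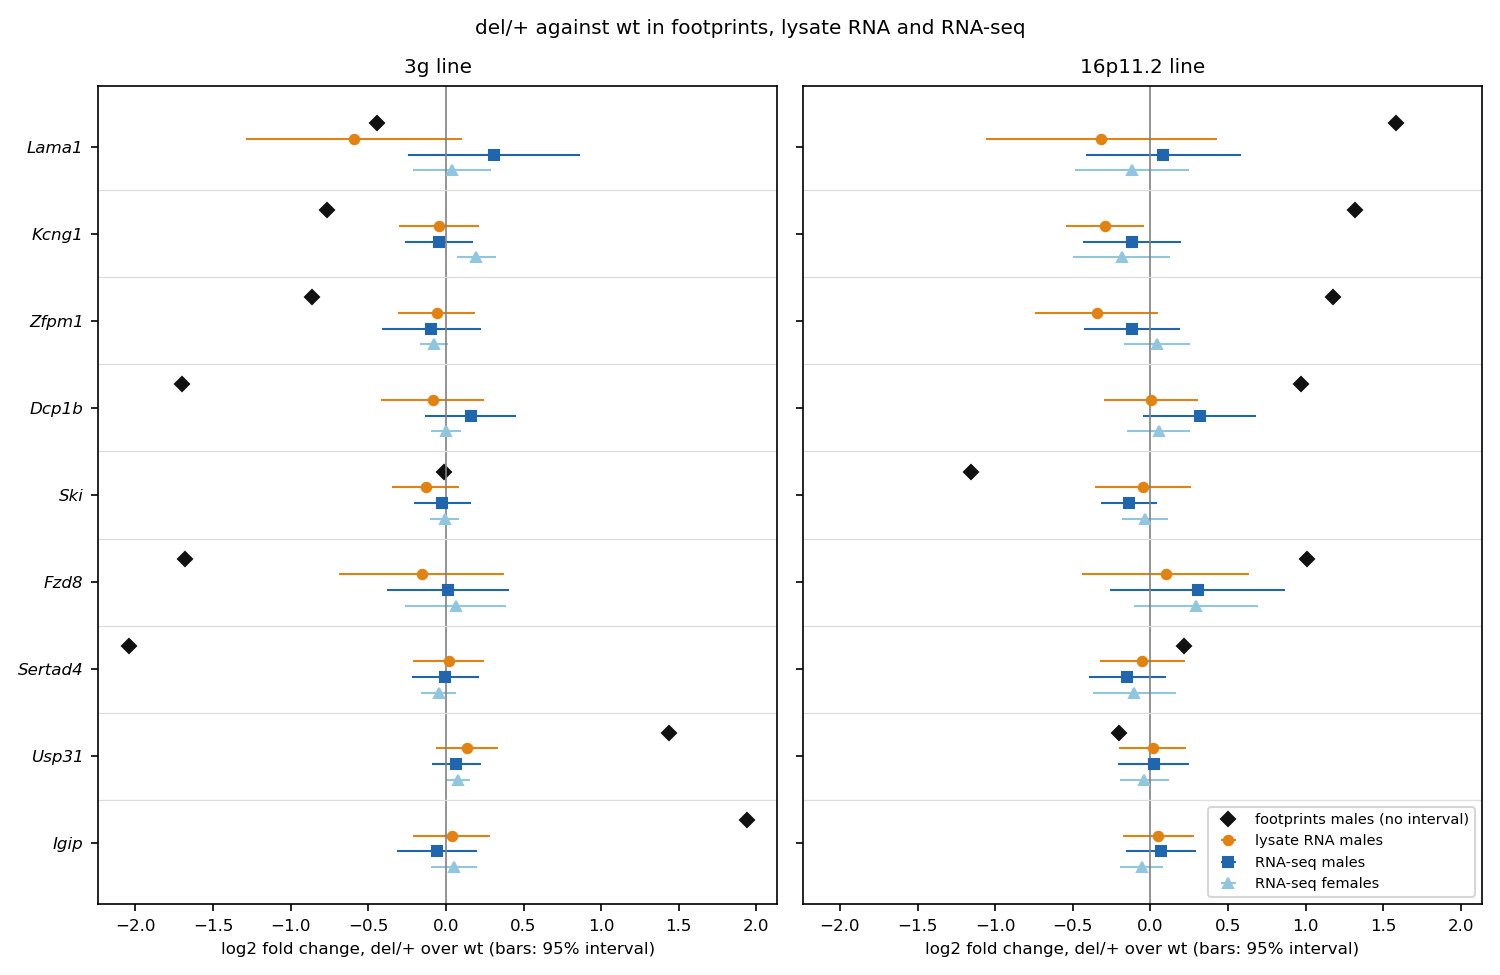
Log2 fold change of del/+ over wt (x axis) for each gene (y axis) in the 3g line (left) and the 16p11.2 line (right). Black diamonds are footprints, which chose the genes and are drawn without an interval. The other symbols are lysate RNA and RNA-seq, with 95% intervals worked back from the edgeR p-values. Footprint values reach -2.04 and 1.94, and RNA values stay between -0.59 and 0.32.

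The footprint differences of several genes had opposite signs in the 2 lines. How many of all genes had opposite signs was not counted, so this is not shown to be particular to the set. Genes with the most footprints for their RNA also had medians of opposite sign, at -0.30 in 3g and 0.16 in 16p11.2 males, as given below. Log2 differences in 16p11.2 and 3g males were 1.58 and -0.44 for Lama1, 1.31 and -0.77 for Kcng1, 1.18 and -0.86 for Zfpm1, and 0.97 and -1.70 for Dcp1b. They were 1.01 and -1.68 for Fzd8 and 0.22 and -2.04 for Sertad4. Usp31 was the reverse case, at -0.20 and 1.44, and Ski had the same sign at -1.16 and -0.0100. These values share no animals between the lines. Without wt A the 3g value of Zfpm1 changed sign, as given above, and those of the other 8 genes did not.

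Dividing footprint CPM by lysate RNA CPM in the same animal gives a footprint-to-RNA ratio. Length was not corrected for, and whether coding regions or whole genes were counted is not given in the sources used here. Length therefore need not cancel when the ratios of different genes are compared. On the log2 scale this ratio of Fzd8 was 7.83, 8.06 and 8.02 in 3g wt and 6.53, 6.15 and 6.53 in 3g del/+ males. In Lama1 it was 6.62, 5.69, 6.76 and 7.30 in 16p11.2 wt and 8.33, 8.09 and 9.26 in 16p11.2 del/+ males. Both genes had a far larger share of the footprints than of the RNA in every animal listed. Fzd8 had 156 to 465 footprint counts beside 49 to 111 lysate RNA counts in 3g males, although the RNA libraries were far deeper. Lama1 had 40 to 186 beside 13 to 33 in 16p11.2 males. Whether all these footprint reads came from ribosomes on these mRNAs was not tested. Among the genes of each footprint comparison, the wt ratio of Fzd8 was at percentile 99.3 in the 3g line and 98.5 in the 16p11.2 line, and that of Lama1 at 98.9 and 98.7. Zfpm1 (98.3 and 97.6), Sertad4 (98.3 and 96.3), Dcp1b (96.4 and 97.2) and Kcng1 (90.4 and 95.3) were also high. Igip was at the other end, at percentile 0.0927 in the 3g and 0.671 in the 16p11.2 line, with log2 ratios of -3.04, -3.37 and -2.68 in 3g wt and -0.995, -1.68 and -0.96 in 3g del/+ males. Usp31 was low as well, at 2.83 and 18.8, and Ski was in the middle, at 33.3 and 62.9. The ratio uses the footprints that chose the genes and was not tested.

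Footprint differences of all genes moved with this ratio in the 3g line, even when it was taken from the wt animals of the other line. In the 16p11.2 line they rose only in the top deciles. In 3g males the median log2 footprint difference went from 0.25 in the lowest decile of the ratio, where 78.7% of genes were higher in del/+, to -0.30 in the highest decile, where 17.2% were higher. In 16p11.2 males it was -0.017 in the lowest decile, -0.048 in decile 4 and -0.012 in decile 8, without a steady trend. It was 0.019 in decile 9 and 0.16 in the highest decile, where 62.4% of genes were higher in del/+. Lama1, Kcng1, Zfpm1, Dcp1b, Fzd8 and Sertad4 were in the highest decile by both lines' ratios, and their footprint differences had the sign of that decile's median in both lines and were larger. Because the genes were chosen for large differences in these same footprints, nothing was read from that match. Usp31 was in decile 2 by the 16p11.2 ratio and in decile 1 by the 3g ratio. The part of these decile differences in the values of the 9 genes was not tested.

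**Figure D5:**
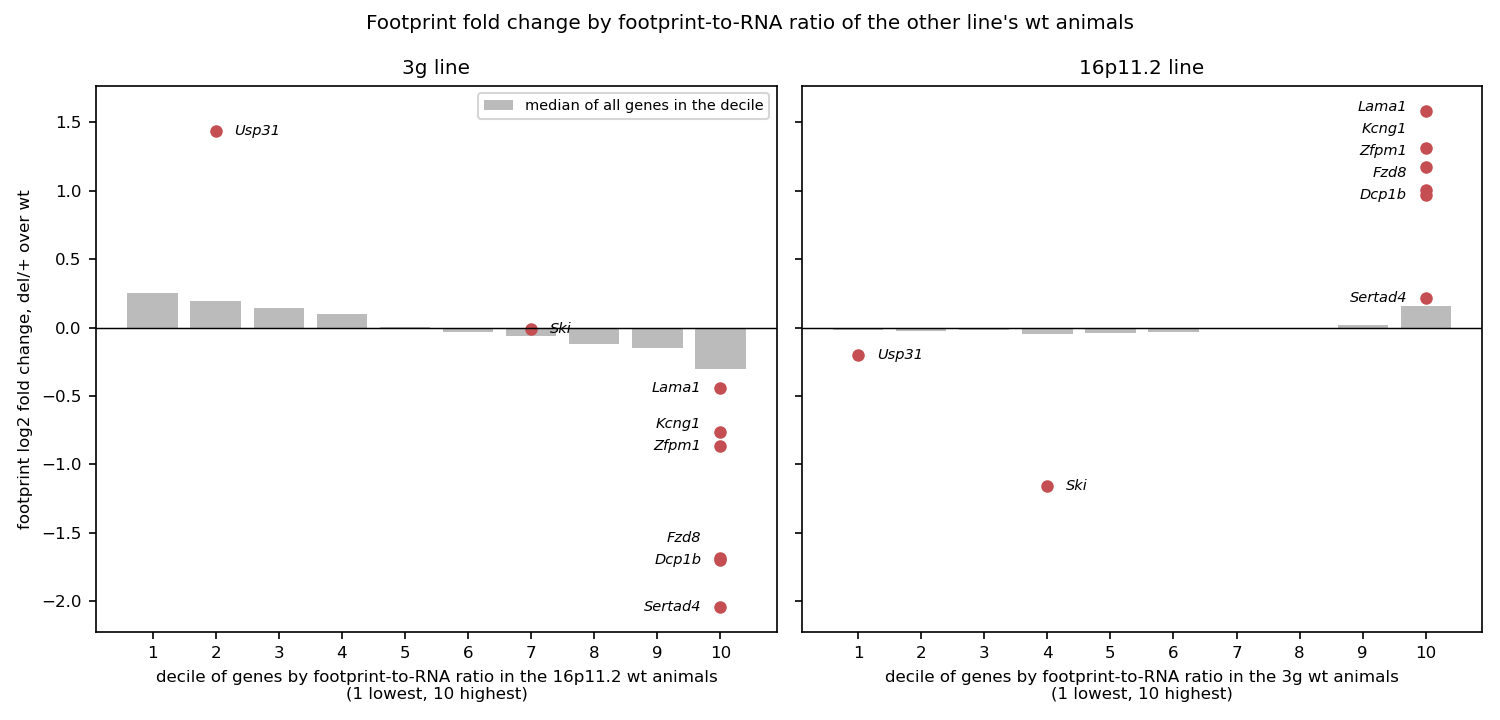
Grey bars show the median footprint log2 fold change of del/+ over wt (y axis) of all genes in deciles of the footprint-to-RNA ratio in the other line's wt animals (x axis, 1 lowest, 10 highest), and red points the named genes. Medians fall from 0.25 to -0.30 in the 3g line and stay between -0.048 and 0.16 in the 16p11.2 line, and 6 of the genes are in decile 10 in both; Igip has no ratio decile here because it did not pass the filter in 16p11.2 footprints.

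Relatives and partners of the 9 genes were read beside them, as lists of 72 further genes: laminins and nidogens, silent Kv subunits and their partners, GATA and FOG factors, decapping factors, SMAD and TGF-beta genes, Frizzled and LRP receptors, SERTA genes and the Usp31 paralog Usp43. edgeR called 0 of them in each of the 8 comparisons, where it called only 0% to 0.144% of all genes. In footprints 26 passed the filter in the 16p11.2 line and 3 had an unadjusted p under 0.05, where 6.15% of all genes had one. In the 3g line 30 passed and 1 had such a p, where 7.97% of all genes had one. The nearest relatives by name gave the following footprint values in 16p11.2 and 3g males. Lama2 was at 0.56 and -0.30, Kcng2 at -0.17 and 0.15, Dcp1a at 0.29 and -0.45, Skil at -0.37 and 0.40, Fzd5 at 0.34 and -0.41, and Sertad2 at 0.016 and -0.13, all with edgeR adjusted p of at least 0.730. Zfpm2 and Usp43 had too few footprints to be fitted. Smad6, an inhibitor of SMAD signalling that was picked here after its values were seen, was at 0.57 in 16p11.2 and -0.82 in 3g males (edgeR adjusted p = 0.688 and 0.414).

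In RNA, 65 or 66 of the 72 relatives passed the filter, with medians between -0.042 and 0.029 on the log2 scale. At an unadjusted p under 0.05 there were 8 in RNA-seq of 3g females and 0 to 3 in each of the other 5 RNA comparisons. The following 6 of those 8 were read after their values were seen. The Kv genes Kcns3 and Kcnv1 were at 0.36 and 0.23, beside Kcng1 itself at 0.20, with edgeR adjusted p of 0.344 and 0.348. The laminin chain Lamb2 was at -0.10 (edgeR adjusted p = 0.441), while Lama1 was at 0.040. Skil, the closest relative of Ski, was at 0.16 and Smad4, the SMAD shared by TGF-beta and BMP signalling, at 0.13 (edgeR adjusted p = 0.247 and 0.380), while Ski was at -0.0067. Fzd5, another Frizzled receptor, was at -0.34 (edgeR adjusted p = 0.407), and Fzd8 was at 0.063. In that comparison 2098 of 19024 genes had an unadjusted p under 0.05. The 6 markers of cortical excitatory neurons had summed levels of 124 to 593 CPM in wt and 174 to 673 CPM in del/+ 3g females, with all 6 log2 differences above 0 and none called. In RNA-seq of 3g males the direction was the other way, with 0 of 6 higher in del/+ and 0 called. The male sums were 39.7 to 950 CPM in wt and 147 to 368 CPM in del/+. The choroid plexus sum was lower in every del/+ female (17.8 to 30.1 CPM) than in every wt female (34.3 to 38.1 CPM). Of its 5 fitted markers 0 were higher and 0 called, and the groups did not overlap for 5.66% of all genes there. Astrocyte sums were 834 to 903 CPM in del/+ and 884 to 956 CPM in wt, oligodendrocyte sums 5504 to 6234 and 5798 to 7582, and microglia sums reached 316 and 347. In each of these 3 lists 0 of 6 markers were higher in del/+, and 0 were called. The part of these cell types in the RNA values of 3g females and males, and in the difference between the sexes for Kcng1, was not tested.

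RNA levels of the 9 genes across the 32 RNA-seq libraries, after each group's mean was taken out, were compared with those of 15101 genes. Each library's points share 1 dissection and 1 depth, and the correlations are descriptions. Nearest to Lama1 were Phldb2 (r = 0.85) and Tns2 (0.85), to Kcng1 Chst11 (r = 0.90) and Ppp2r2a (0.86), and to Zfpm1 Cspg5 (r = 0.90) and Rab5c (0.89). Nearest to Dcp1b were Dnmt3a (r = 0.95) and Gm11766 (0.94), to Ski Arf3 (r = 0.81) and Kars (0.80), and to Fzd8 Trub2 (r = 0.75) and Pyurf (0.72). Sertad4 was nearest to Pde7b (r = 0.90) and Dlx6 (0.88), Usp31 to Luzp1 (r = 0.86) and Fermt2 (0.83), and Igip to Exosc3 (r = 0.85) and Fam8a1 (0.83). No gene of the set was among the nearest of another. With the 2 libraries that stand apart left out, 3g wt male 17 and 16p11.2 del/+ male 4, the r of Zfpm1 with Cspg5 fell to 0.73 and that of Lama1 with Phldb2 to 0.70, while Kcng1 with Chst11 was at 0.90 and Sertad4 with Pde7b at 0.92. Without 16p11.2 del/+ female 1, also chosen after the data were seen, the r of the 18 pairs moved by at most 0.023.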

How the data were processed

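Whole-number counts per Ensembl gene were used as deposited by the authors, without normalization. For RNA-seq, the authors' methods name bcbio-nextgen and the submitters' processing notes name HTSeq and mm10; for footprints and lysate RNA the notes name Bowtie2 and mm39, and how footprints were prepared and multi-mapping reads counted is not given in the sources used here. Each of 8 comparisons of del/+ with wt was fitted on its own libraries with edgeR 4.0.16 in R 4.3.3 (filterByExpr, TMM, quasi-likelihood test), and adjusted p-values are Benjamini-Hochberg values over all genes tested, with a threshold of 0.05. CPM are counts per 1000000 of the TMM-scaled library size. Intervals are 95% intervals of the fitted log2 difference. Their standard errors were worked back from the edgeR p-value and its degrees of freedom with a t distribution, and were not given by edgeR itself. The ratio per animal used a pseudocount of 0.5 counts. Symbols came from the reference table, which named 54409 and 18377 of the gene identifiers. The 9 genes and the gene lists were chosen with earlier results of these data known. The named genes were the 9, their nearest relatives in lists where none was called, the 3 mutated genes, the genes at the footprint threshold, and for each gene the 2 with the highest r. Alternatives were DESeq2 1.42.0, RLE scaling, no filter, a threshold of 0.10, all libraries of a line in 1 fit, a replicate block, and leaving out each library. The fits were tested on simulated data. Of the relatives, 2 genes are not reported here. No 2 libraries of a group were identical (78 pairs compared).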

Additional observations from a re-analysis of the deposited data

Results flagged for a closer look

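In 9 of 81 groups of 4 RNA samples, the highest or lowest library was far from the rest by Dixon's test, where chance gives 4.05 such groups. Footprint values chose the genes, and the footprint samples apart are listed as a description without a test.

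In footprints of 16p11.2 wt males, wt A was the sample apart for Fzd8, at 644 CPM, where the others of its group were at 123 to 182 CPM, and for Sertad4, at 309.5 CPM, where the others of its group were at 125 to 157 CPM. The lysate RNA of Igip was also highest in that animal, at 87.1 CPM, where the others of its group were at 80.8 to 81.6 CPM.

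In RNA-seq of 16p11.2 males, del/+ male 4 was the library apart for Dcp1b, at 32.99 CPM, where the others of its group were at 20.9 to 22.4 CPM, and for Ski, at 181 CPM, where the others of its group were at 202 to 205 CPM. Dcp1b in wt male 4 was at 15.7 CPM, where the others of its group were at 20.8 to 21.5 CPM. In 16p11.2 females, wt female 3 had Kcng1 at 42.8 CPM, where the others of its group were at 51.2 to 52.6 CPM, and Usp31 at 147 CPM, where the others of its group were at 131 to 133 CPM.

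In RNA-seq of the 3g line, Zfpm1 in wt male 17 was at 34.5 CPM, where the others of its group were at 22.9 to 24.03 CPM. Fzd8 in del/+ male 25 was at 1.44 CPM, where the others of its group were at 2.09 to 2.18 CPM. Kcng1 in wt female 35 was at 41.5 CPM, where the others of its group were at 36.5 to 37.3 CPM.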

How the results depend on the processing

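No alternative called any of the 9 genes in RNA: 0 of 621 RNA log2 differences passed, and the lowest adjusted p was 0.133. These are refits of the same 54 differences and not separate checks. Few genes were called at all, with 0.00524% to 0.620% of all genes in RNA by DESeq2. Counts of all genes called moved more. DESeq2 called 9 and 14 genes in 3g and 16p11.2 footprints (1 and 7 in edgeR), 13 and 31 in lysate RNA (3 and 19), 1 and 118 in RNA-seq of 3g males and females (0 and 1), 30 and 49 in 16p11.2 males and females (19 and 26), and 3 for genotype by sex in the 16p11.2 line (0). Without the filter on low counts edgeR called 127, 43 and 9 genes in 3g footprints, 16p11.2 footprints and 3g lysate RNA, and 158 and 45 in RNA-seq of 3g and 16p11.2 females. At an adjusted p under 0.10 it called 7, 19, 7 and 2 in 3g footprints, 16p11.2 footprints, 3g lysate RNA and 3g female RNA-seq, and with all 16 libraries of the 3g line in 1 fit 1 in males. Leaving out 1 library gave 0 to 24 and 2 to 13 genes in 3g and 16p11.2 footprints, 3 to 12 and 10 to 19 in lysate RNA, 0 to 1 and 1 to 175 in 3g males and females, and 17 to 26 and 22 to 28 in 16p11.2 males and females. The cause was not tested.

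Some RNA differences near 0 changed sign: lysate RNA of Dcp1b in 16p11.2 males was at -0.0023 in DESeq2 and -0.0022 with RLE scaling, and without the filter Fzd8 was at -0.013 in 3g males, Dcp1b at -0.0095 in 3g females and Usp31 at -0.00020 in 16p11.2 males. Leaving out 1 library also changed the sign of some log2 differences, whose ranges follow. In footprints of 3g males they were -1.22 to 0.059 for Zfpm1 and -0.15 to 0.10 for Ski. In lysate RNA of 3g males they were -0.10 to 0.029 for Kcng1, -0.14 to 0.016 for Zfpm1, -0.22 to 0.012 for Dcp1b, -0.33 to 0.18 for Fzd8, -0.015 to 0.084 for Sertad4 and -0.043 to 0.16 for Igip. In lysate RNA of 16p11.2 males they were -0.088 to 0.12 for Dcp1b, -0.23 to 0.053 for Ski, -0.049 to 0.22 for Fzd8, -0.17 to 0.050 for Sertad4, -0.029 to 0.062 for Usp31 and -0.028 to 0.15 for Igip. In RNA-seq of 3g males they were -0.11 to 0.014 for Kcng1, -0.16 to 0.057 for Zfpm1, -0.066 to 0.0086 for Ski, -0.038 to 0.11 for Fzd8, -0.082 to 0.051 for Sertad4 and -0.14 to 0.033 for Igip. In RNA-seq of 3g females they were -0.031 to 0.14 for Lama1, -0.018 to 0.031 for Dcp1b, -0.042 to 0.021 for Ski and -0.034 to 0.14 for Fzd8. In RNA-seq of 16p11.2 males they were -0.13 to 0.21 for Lama1 and -0.042 to 0.11 for Usp31. In RNA-seq of 16p11.2 females they were -0.036 to 0.13 for Zfpm1, -0.0082 to 0.11 for Dcp1b, -0.060 to 0.0015 for Ski and -0.077 to 0.0023 for Usp31.

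Nothing in the labels says that equal numbers in 16p11.2 RNA-seq mark shared litters or days, and the correlation of same-numbered libraries was -0.26 to 0.11, with 1 of 8 nearest to its own number. With a replicate block, 14 genes were called in males and 22 in females, and 0 of the 9. No paired analysis was possible for the other comparisons because their groups share no numbers. Footprint depth limits Igip most.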

Other observations

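Outside the 9 genes, Olfr1029, an olfactory receptor gene noticed after its values were seen, also had footprint differences of opposite sign in the lines. Its log2 difference was -1.41 in 3g males (edgeR adjusted p = 0.0917, DESeq2 0.000801) and 0.86 in 16p11.2 males (edgeR adjusted p = 0.0844, DESeq2 0.00771). How many of all genes had such opposite signs was not counted. Ttyh1, a gene of a chloride channel family, was the other gene that DESeq2 called in footprints of both lines, among 9 genes in 3g and 14 in 16p11.2 males. edgeR called it in neither line, and the direction of its differences was not read here.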
